A study of Mus musculus with 6 samples.

Results

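The Krueppel-like factors (KLFs) examined here were 10 genes listed by name, Klf2, Klf3, Klf4, Klf5, Klf6, Klf9, Klf10, Klf13, Klf15 and Klf16, out of 21959 genes in the count table. Of these 10 genes, 9 passed the filter on low counts together with 11795 genes in all, and Klf15 did not. RNA was measured in MPC, a mouse gastric adenocarcinoma line, and in MPC-PTX, which was raised from it by over 30 cycles of treatment with PTX (paclitaxel, a drug that stabilises microtubules). The study's paper calls these lines MTC and MTC-R. Each line gave 3 libraries. Both lines carry the genotype CDH1-/-;Trp53-/-, so no comparison here bears on the loss of these genes, and both were grown in RPMI 1640 medium with serum. MPC was a monoclonal line from a subcutaneous tumour that grew in nude mice from gastric organoids, in which both genes had been deleted ex vivo with Mist1-CreER. MPC-PTX was cloned again after the PTX cycles, so the effect of PTX cannot be told apart from the properties of the selected clone. The label of the control libraries names no vehicle or passage match. The labels mark no difference in batch among the 6 libraries and do not say whether replicates were separate cultures. The p-values thus measure the spread between these libraries, which may be technical.

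KLFs bind DNA through zinc fingers at the C terminus of the protein and recognise GC-rich sequences, the GC box and the CACCC box, which they share with the related SP factors. The rest of the protein differs between members and recruits coactivators such as EP300 or corepressors such as CTBP and SIN3A, so members can act on the same sites in opposite directions. In gastrointestinal epithelium KLF5 is known for proliferating cells and KLF4 for differentiated, post-mitotic cells, and several members, among them Klf2, Klf4, Klf6 and Klf10, are known to respond quickly to serum, growth factors or TGF-beta.

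Promoter sequences were available from RefSeq (GRCm38.p6) for 7 of the 10 genes, but not for Klf5, Klf10 and Klf16. The 250 bases before the start site are shown for Klf4 and Klf13, which were higher in MPC-PTX, and for Klf6, the KLF with the highest level per length. Each is written 5′ to 3′ on the strand of its gene. Capitals mark the CACCC box (CACCC or GGGTG) and the GC box (GGGCGG or CCGCCC), which can overlap or adjoin each other.
Klf4 (chr4:55532476-55532725, minus strand): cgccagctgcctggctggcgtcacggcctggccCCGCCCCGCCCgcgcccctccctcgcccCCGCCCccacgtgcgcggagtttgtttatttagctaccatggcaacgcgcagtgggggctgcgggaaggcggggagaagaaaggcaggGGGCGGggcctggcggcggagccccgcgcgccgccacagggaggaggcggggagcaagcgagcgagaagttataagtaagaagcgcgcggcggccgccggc
Klf13 (chr7:63938916-63939165, minus strand): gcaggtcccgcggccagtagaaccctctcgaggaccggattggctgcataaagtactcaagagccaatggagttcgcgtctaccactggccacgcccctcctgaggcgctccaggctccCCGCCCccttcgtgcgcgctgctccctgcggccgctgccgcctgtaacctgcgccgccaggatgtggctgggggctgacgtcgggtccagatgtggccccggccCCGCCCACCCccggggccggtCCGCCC
Klf6 (chr13:5861239-5861488, plus strand): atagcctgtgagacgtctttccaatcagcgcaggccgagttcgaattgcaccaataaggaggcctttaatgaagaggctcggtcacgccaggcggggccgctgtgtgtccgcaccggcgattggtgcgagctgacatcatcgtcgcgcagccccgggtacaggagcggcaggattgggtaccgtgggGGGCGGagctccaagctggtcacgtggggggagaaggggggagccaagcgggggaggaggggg
The Klf4 window held 4 GC boxes and 0 CACCC boxes, at a GC content of 74.0%. The Klf13 window held 3 GC boxes and 1 CACCC box, and the Klf6 window 1 GC box and 0 CACCC boxes. Of the 7 genes with a sequence, 6 had a GC box and 5 had a CACCC box, against 32.7% and 52.0% of 32817 RefSeq promoters of the same length. A match describes letters in the window and not binding.

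Libraries held 16574580 to 23148182 counts and 13897 to 14295 detected genes. The spread was wider in MPC, with a biological coefficient of variation of 17.9% against 3.01% in MPC-PTX. MPC replicates 1 and 3 lay about equally far from the mean of the other MPC libraries. The median absolute distances were 0.21 and 0.23 on the log2 scale, against 0.10 for MPC replicate 2. Deviations from the mean of the line followed GC content across genes, with a Spearman's rho of 0.47, 0.35 and -0.58 for MPC replicates 1, 2 and 3. They also followed transcript length, with a rho of -0.40, -0.21 and 0.45. For MPC-PTX replicates 1, 2 and 3 the rho was 0.27, -0.01 and -0.27 with GC content and -0.18, 0.04 and 0.15 with length. Among the MPC libraries, replicate 1 was also high in immediate early genes, and had 373 CPM of Egr1 where MPC replicates 2 and 3 had 44.6 and 45.9. The MPC-PTX libraries had 310, 311 and 316 CPM of Egr1. CPM are counts scaled to the same library size with TMM factors. The coefficient of variation of CPM was larger in MPC than in MPC-PTX for 9 of the 9 tested KLFs, at 2.66% to 41.0% in MPC and 0.42% to 6.48% in MPC-PTX. MPC replicate 3 was the highest MPC library for 5 of them, replicate 1 for 3 and replicate 2 for 1. All 6 epithelial markers were expressed, with a summed level of 7745 to 8928 CPM in MPC and 4499 to 4628 in MPC-PTX. At an adjusted p below 0.05, 6 of 6 were lower in MPC-PTX, beside 15.6% of all tested genes. Of 8 gastric markers, 5 had at most 3 counts in any library, and the 3 tested were lower in MPC-PTX by the same threshold. The 8 summed to 1074 to 1261 CPM in MPC and 615 to 622 in MPC-PTX. Ctse and Anxa10 had log2 fold changes of -7.54 and -8.62, and Tff1 and Tff2 had a count of 0 in every library. The part of these markers in the KLF results was not tested. Markers of other cells were low in both lines, though none was at 0 in every library. The 8 fibroblast markers summed to 9.83 to 10.9 CPM in MPC and 8.63 to 9.92 in MPC-PTX, the 8 leukocyte markers to 11.3 to 12.8 and 9.80 to 10.8, and the 7 endothelial markers to 3.45 to 4.89 and 3.20 to 3.50.

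Of the genes that the genotype names, Cdh1 had 136, 132 and 135 CPM in MPC and 131, 136 and 132 in MPC-PTX, and Trp53 had 5.21, 3.25 and 5.77 CPM in MPC and 6.07, 5.86 and 6.59 in MPC-PTX. Gene totals do not tell reads of deleted exons from those of remaining exons. The log2 fold change of MPC-PTX over MPC was -0.01 for Cdh1 (adjusted p = 0.864) and 0.38 for Trp53 (adjusted p = 0.228), by the quasi-likelihood test of edgeR.

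Among the 9 tested KLFs, Klf4, Klf10 and Klf13 were higher in MPC-PTX at an adjusted p below 0.05, none was lower and 6 were not called. Klf4 changed most, with a linear fold of 3.25, while Klf10 and Klf13 rose by linear folds of 1.29 and 1.26. The 3 higher genes were 33.3% of the tested KLFs, where 14.1% of all tested genes were higher and 15.6% lower. The rule of the study's methods asks for a log2 fold change beyond 1 in either direction and p below 0.05 without adjustment. By it 1 KLF (Klf4) was higher and 0 lower, against 3.77% and 4.34% of all tested genes. The 3 MPC-PTX libraries lay above the 3 MPC libraries for 3 KLFs and below them for 2 (Klf5 and Klf16), against 24.2% and 22.7% of all tested genes. In the lower direction, where edgeR made no call, 2 KLFs had an unadjusted p under 0.05 (Klf5 and Klf16). The share of all genes at that unadjusted p was not taken, so this count has no background beside it. DESeq2 called 1 lower (Klf5), where it called 16.6% of all genes lower. Without MPC replicate 3, edgeR called 4 KLFs higher and 2 lower, where it called 25.4% and 27.1% of all genes. Without MPC replicate 1 it called 3 higher and 1 lower, where it called 18.3% and 17.7% of all genes. The median log2 fold change of the 9 KLFs was 0.01, and that of all tested genes 0.04. These are bulk libraries, in which a change in the share of cells that express a gene and a change in RNA per cell cannot be told apart.

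**Figure D1:**
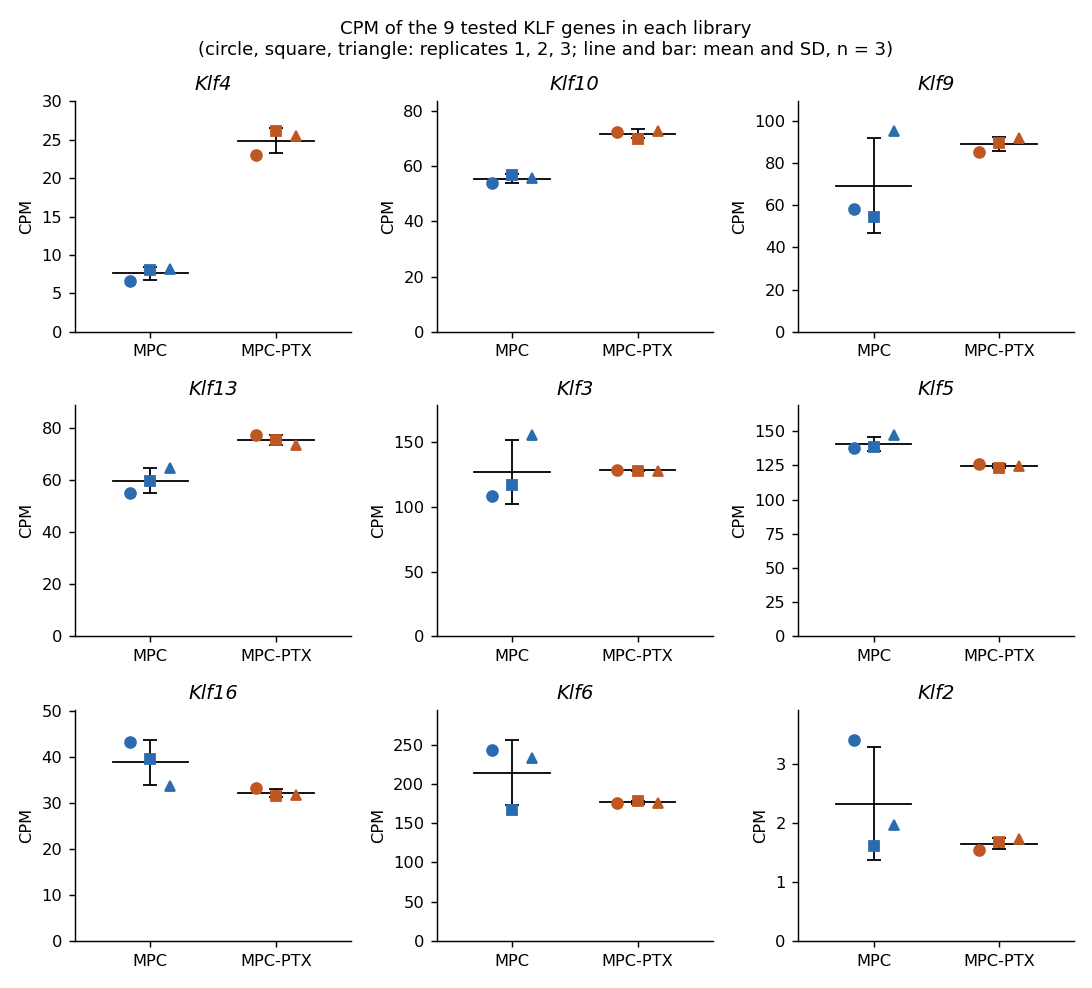
CPM (y axis, starting at 0, with its own scale in each panel) of the 9 tested KLF genes in the 3 MPC and 3 MPC-PTX libraries, with lines and bars for mean and SD (n = 3). For Klf4 the MPC libraries sit at 6.64 to 8.17 CPM and the MPC-PTX libraries at 23.1 to 26.1, and for Klf9 the MPC libraries spread from 54.4 to 95.2 CPM.

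Klf4 (ENSMUSG00000003032, chr4:55527143-55532466, minus strand, GENCODE M21 on GRCm38) encodes a factor known for growth arrest and differentiation in gut epithelium and for its use in reprogramming cells to pluripotency. The counts were 125, 157 and 170 in MPC and 540, 580 and 428 in MPC-PTX, which gave 6.64, 8.09 and 8.17 CPM in MPC and 23.1, 26.1 and 25.4 CPM in MPC-PTX. The lines did not overlap, and the lowest MPC-PTX library was 2.82 times the highest MPC library. The mean rose from 7.63 ± 0.861 CPM (SD, n = 3) to 24.9 ± 1.61 CPM (SD, n = 3), a log2 fold change of 1.70 with a standard error (SE) of 0.12 (95% interval 1.43 to 1.97, adjusted p = 9.88e-05 in edgeR's test). The call was kept in 15 of 15 alternative settings, with log2 fold changes of 1.61 to 1.84. Klf4 sat beside few expressed genes. Within 1 Mb, 2 genes were tested, and both were higher in MPC-PTX. They were Zfp462, a zinc finger gene, with a log2 fold change of 2.54 (adjusted p = 0.00102), and Rad23b, a nucleotide excision repair gene, with 0.19 (adjusted p = 0.0348). The median of the 739 tested genes of chromosome 4 was 0.20.

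Over the 6 libraries, the tested genes whose log2 CPM was most like that of Klf4 were Medag (Pearson's r = 0.999), Kdm6b, a demethylase of histone H3 (r = 0.998), and Synj2, a phosphoinositide phosphatase (r = 0.998). In all, 78 genes had an r above 0.99. With libraries from only these lines, any gene with a clean step between them reaches a high r. The sizes of the step differed, with log2 fold changes of 3.57 for Medag, 0.58 for Kdm6b and 0.83 for Synj2.

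Klf5 (ENSMUSG00000005148, chr14:99298691-99315036, plus strand) encodes the member known for proliferating cells of gut epithelium. Its libraries had 137.5, 138.6 and 146.9 CPM in MPC and 126.0, 123.4 and 124.3 CPM in MPC-PTX. All MPC libraries lay above all MPC-PTX libraries, by a margin that was small against the level. The means were 141 ± 5.15 CPM (SD, n = 3) and 125 ± 1.33 CPM (SD, n = 3), a log2 fold change of -0.18 (SE 0.06, 95% interval -0.32 to -0.04, unadjusted p = 0.0170, adjusted p = 0.0552 in edgeR's test), which missed the threshold. The adjusted p was below 0.05 in 7 of 15 alternatives, among them DESeq2 (0.0431) and the correction for GC content and length (0.00650). The ratio of Klf5 to Klf4, both in TPM (counts per transcript length, scaled to the same total in every library), was 12.1, 10.0 and 10.5 in MPC and 3.20, 2.77 and 2.87 in MPC-PTX, without overlap.

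Klf10 and Klf13 belong with Klf9, Klf16 and Klf11 to the members that carry a SIN3-interacting domain and act mainly as repressors. Klf10 (ENSMUSG00000037465, chr15:38291463-38300706, minus strand), known as a TGF-beta-inducible early gene, had 53.9, 56.8 and 55.6 CPM in MPC and 72.4, 69.8 and 72.7 CPM in MPC-PTX. The replicates were close in both lines and the lines did not overlap. Klf10 rose by 0.37 on the log2 scale (SE 0.06, 95% interval 0.22 to 0.52, adjusted p = 0.00536 in edgeR's test). Of 15 alternatives, 14 kept the call, and the exception was the test against a log2 fold change of 1.

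Klf13 (ENSMUSG00000052040, chr7:63886351-63938915, minus strand), known as a regulator of cytokine genes in T cells and of cardiac genes, had 55.3, 59.8 and 64.8 CPM in MPC and 77.3, 75.5 and 73.7 CPM in MPC-PTX. The lowest MPC-PTX library was above the highest MPC library. Klf13 rose by 0.33 on the log2 scale (SE 0.08, 95% interval 0.15 to 0.52, adjusted p = 0.0181 in edgeR's test). The call was lost without MPC replicate 2 (adjusted p = 0.0689), MPC-PTX replicate 1 (0.0877), MPC-PTX replicate 2 (0.0794) or MPC-PTX replicate 3 (0.0660), at log2 fold changes that stayed between 0.32 and 0.35.

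Klf9 (ENSMUSG00000033863, chr19:23141226-23168134, plus strand), which is induced by glucocorticoids and thyroid hormone in many tissues, had 58.4, 54.4 and 95.2 CPM in MPC and 85.5, 89.7 and 91.8 CPM in MPC-PTX. MPC replicate 3 was the highest of the 6 libraries, and MPC replicates 1 and 2 were the lowest. The log2 fold change was 0.36 (SE 0.21, 95% interval -0.14 to 0.85, adjusted p = 0.242 in edgeR's test). Without MPC replicate 3 it was 0.61, with an adjusted p of 4.0e-05. With GC content and length corrected for in each library it was 0.34, with an adjusted p of 0.147. Klf9 was called in 2 of 15 alternatives.

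Klf16 (ENSMUSG00000035397, chr10:80567124-80577321, minus strand), a repressor described in the brain and in metabolism, had 43.4, 39.6 and 33.7 CPM in MPC and 33.3, 31.6 and 31.8 CPM in MPC-PTX. The lines did not overlap, but MPC replicate 3 lay just above MPC-PTX replicate 1. The log2 fold change was -0.27 (SE 0.11, 95% interval -0.52 to -0.02, unadjusted p = 0.0363, adjusted p = 0.0964 in edgeR's test). It was -0.42 without MPC replicate 3 (adjusted p = 0.00108) and -0.21 after the correction for GC content and length (adjusted p = 0.0275). Klf16 lies in a gene-dense stretch of chromosome 10, where 40 of 88 tested genes within 1 Mb were lower in MPC-PTX and 3 were higher. These shares were 45.5% and 3.41%, beside 15.6% and 14.1% of all tested genes. These neighbours had a median log2 fold change of -0.30, and that of the 549 tested genes of the chromosome was -0.18.

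Klf3 (ENSMUSG00000029178, chr5:64803388-64832901, plus strand), a repressor that works through CTBP corepressors, had 108, 117 and 155 CPM in MPC and 129, 128 and 128 CPM in MPC-PTX. MPC-PTX libraries lay inside the range of MPC, and the log2 fold change was 0.01 (SE 0.13, 95% interval -0.29 to 0.32, adjusted p = 0.943 in edgeR's test), and its sign turned in 7 of 15 alternatives. Exons of Klf3 share 404 bases with Gm20033 on the opposite strand, and since no use of strand is stated, reads from the pair cannot be told apart there.

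Klf6 (ENSMUSG00000000078, chr13:5861482-5870394, plus strand), known as a tumour suppressor in several carcinomas and as an injury-responsive gene, had 244, 167 and 233 CPM in MPC and 175, 178 and 176 CPM in MPC-PTX. MPC replicate 2 was the lowest of the 6 libraries and MPC replicates 1 and 3 were the highest. The log2 fold change was -0.28 (SE 0.14, 95% interval -0.60 to 0.04, adjusted p = 0.165 in edgeR's test). It was -0.43 without MPC replicate 2 (adjusted p = 0.00884) and -0.18 without MPC replicate 1 (adjusted p = 0.367).

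Klf2 (ENSMUSG00000055148, chr8:72319033-72321656, plus strand), which is known in endothelium and lymphocytes, was scarce. It had 64, 31 and 41 counts in MPC and 36, 37 and 29 in MPC-PTX, or 3.40, 1.60 and 1.97 CPM and 1.54, 1.67 and 1.72 CPM. The high value belonged to MPC replicate 1, which was also the high library for immediate early genes. The log2 fold change was -0.50 (SE 0.30, 95% interval -1.21 to 0.21, adjusted p = 0.260 in edgeR's test), and -0.13 without that library. Klf15 (chr6:90462576-90475238, plus strand), a metabolic regulator of liver, muscle and kidney, had 1, 1 and 0 counts in MPC and 0 in each MPC-PTX library. Both lines were under the 3 counts that a count of 0 allows, so no fold is given.

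**Figure D2:**
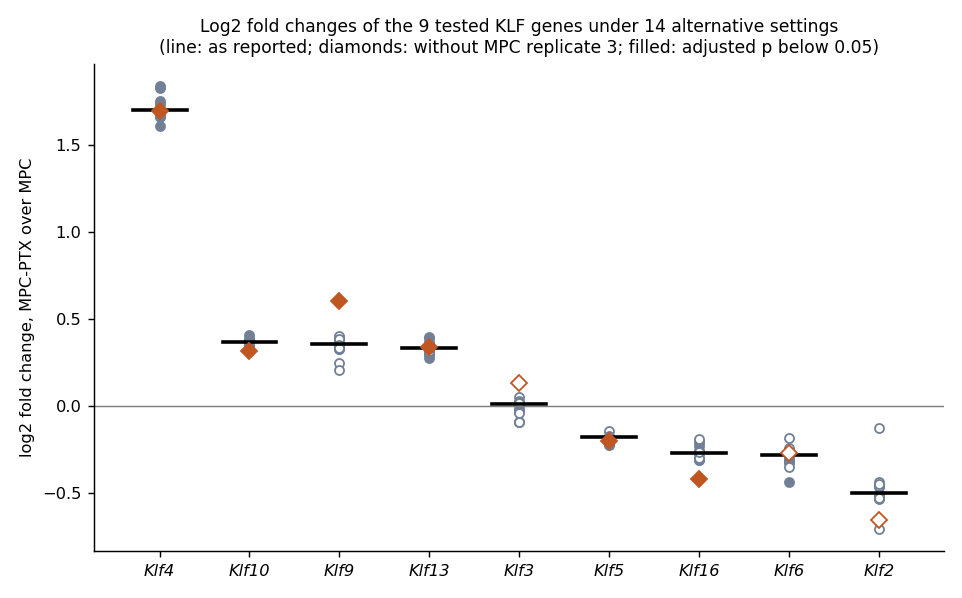
Log2 fold change of MPC-PTX over MPC (y axis) for the 9 tested KLF genes, with a line for the reported value and a point for each of 14 alternative settings, filled where the adjusted p was below 0.05. Diamonds are the fits without MPC replicate 3, which move Klf9 to 0.61 and Klf16 to -0.42, while every Klf4 point lies between 1.61 and 1.84.

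Levels of different genes were compared as TPM with the length of the union of a gene's exons. Klf6 had the highest level of the 10 genes in both lines, with 156 ± 29.9 TPM (SD, n = 3) in MPC and 137 ± 1.37 TPM (SD, n = 3) in MPC-PTX. Klf5 came next, with 87.0 ± 6.67 TPM (SD, n = 3) and 81.5 ± 0.736 TPM (SD, n = 3). In MPC the middle of the order was Klf9, Klf16, Klf10 and Klf3, with means of 46.5, 46.5, 42.5 and 36.4 TPM, and each of these overlapped its neighbour. Klf13 (25.6 TPM), Klf4 (8.05 TPM), Klf2 (3.99 TPM) and Klf15 (0.039 TPM) followed without overlap. In MPC-PTX no neighbours overlapped, and the order was Klf6, Klf5, Klf9 (62.9 TPM), Klf10 (58.4 TPM), Klf16 (41.0 TPM), Klf3 (38.8 TPM), Klf13 (34.1 TPM), Klf4 (27.8 TPM) and Klf2 (3.03 TPM). Klf4 thus kept its place in the order while its level came near that of Klf13. The order depended on the length used. With the longest transcript, Klf3 moved up to follow Klf5 in both lines (58.3 and 62.3 TPM), Klf6 and Klf5 overlapped in MPC, and Klf16 and Klf13 overlapped in MPC-PTX.

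The summed level of the 10 genes was 442, 406 and 511 TPM in MPC and 481, 484 and 489 TPM in MPC-PTX, and the MPC-PTX libraries lay inside the range of MPC. Within that sum, Klf4 took 1.51%, 2.102% and 1.75% in MPC and 5.33%, 6.03% and 5.84% in MPC-PTX. Klf10 went from 9.46% ± 1.13 (SD, n = 3) to 12.0% ± 0.267 (SD, n = 3), and Klf6 from 34.4% ± 4.20 (SD, n = 3) to 28.2% ± 0.251 (SD, n = 3). The smallest p that an exact two-sided permutation test allows for 3 libraries in each line is 0.1, so these shares carry no test.

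**Figure D3:**
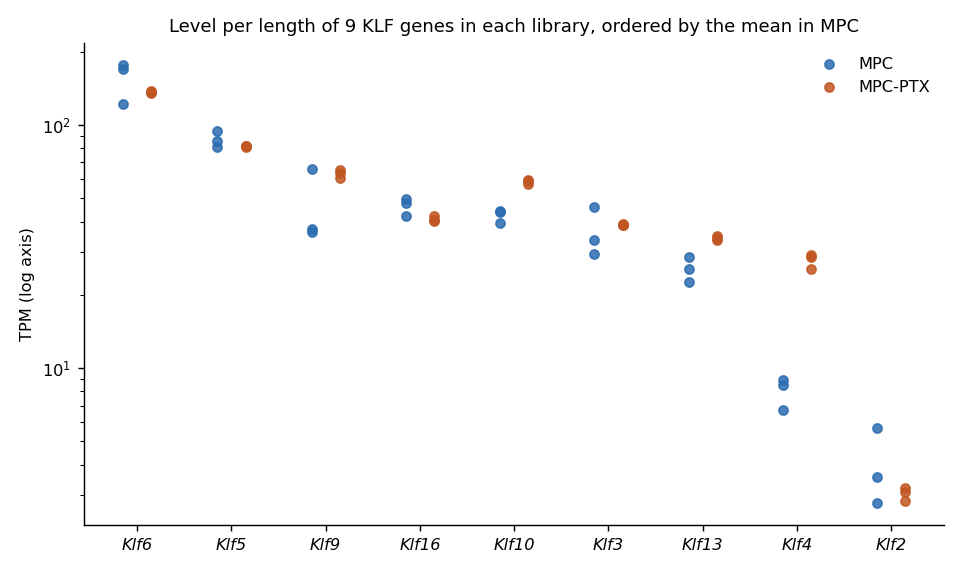
Level per length in TPM (y axis, log scale) of 9 KLF genes in each of the 3 MPC and 3 MPC-PTX libraries, ordered by the mean in MPC. Klf6 and Klf5 are highest in both lines, the 4 genes from Klf9 to Klf3 lie close together in MPC, and the gap between the lines is widest for Klf4.

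Of the 16 other KLF and SP genes, 8 passed the filter. In edgeR's test 0 of them were higher and 1 was lower, shares of 0% and 12.5% beside 14.1% and 15.6% of all tested genes, and the median log2 fold change was 0.30. At an unadjusted p under 0.05, for which no share of all genes was taken, 2 were higher. DESeq2 called 1 higher, where it called 12.3% of all genes higher. With the GC and length correction edgeR called 4 of the 8 higher, where it called 21.2% of all genes higher, and without MPC replicate 3 it called 3, where it called 25.4% of all genes. The lower gene was Klf11, another SIN3-binding repressor and TGF-beta-inducible gene, which had 23.6, 22.5 and 25.8 CPM in MPC and 17.3, 18.6 and 15.7 CPM in MPC-PTX. Its log2 fold change was -0.48 (SE 0.10, adjusted p = 0.0115 in edgeR's test), opposite in sign to that of Klf10. The call was lost without MPC-PTX replicate 1 (adjusted p = 0.0565) or MPC-PTX replicate 3 (adjusted p = 0.0595). Klf7, described in neurons, had 23.9, 30.3 and 44.1 CPM in MPC and 48.9, 48.4 and 51.9 CPM in MPC-PTX, with a log2 fold change of 0.60 (SE 0.21, adjusted p = 0.0723 in edgeR's test). Without MPC replicate 3 it was 0.82, with an adjusted p of 0.000172. Klf7 shares 3196 exon bases with Gm26649 on the opposite strand.

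The broadly expressed SP factors were not called in the reported fit, but Sp1 was called higher in 6 of 15 alternatives and Sp2 and Sp3 in 3 each. Sp1 had 128, 135 and 167 CPM in MPC and 170, 181 and 182 CPM in MPC-PTX, without overlap (log2 fold change 0.31, adjusted p = 0.0605 in edgeR's test). For Sp2, Sp3 and Sp4 the log2 fold changes were 0.21 (adjusted p = 0.134), 0.41 (adjusted p = 0.243) and 0.29 (adjusted p = 0.196). Without MPC replicate 3, Sp1 and Sp3 had an adjusted p of 0.000387 and 5.6e-05. With the GC and length correction, the adjusted p was 0.0151 for Sp1, 0.0226 for Sp2 and 0.0356 for Sp3. Klf1, the erythroid member, and Klf8 were low, at 0.438 and 1.22 CPM in MPC, with log2 fold changes of 0.35 (adjusted p = 0.509) and -0.15 (adjusted p = 0.760). Klf12, Klf14, Klf17, Sp6, Sp7 and Sp9 had a count of 0 in all 6 libraries, which allows 3 counts in each. Sp5 had 1 count in MPC replicates 1 and 2, and Sp8 had 2 counts in MPC replicate 3.

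**Figure D4:**
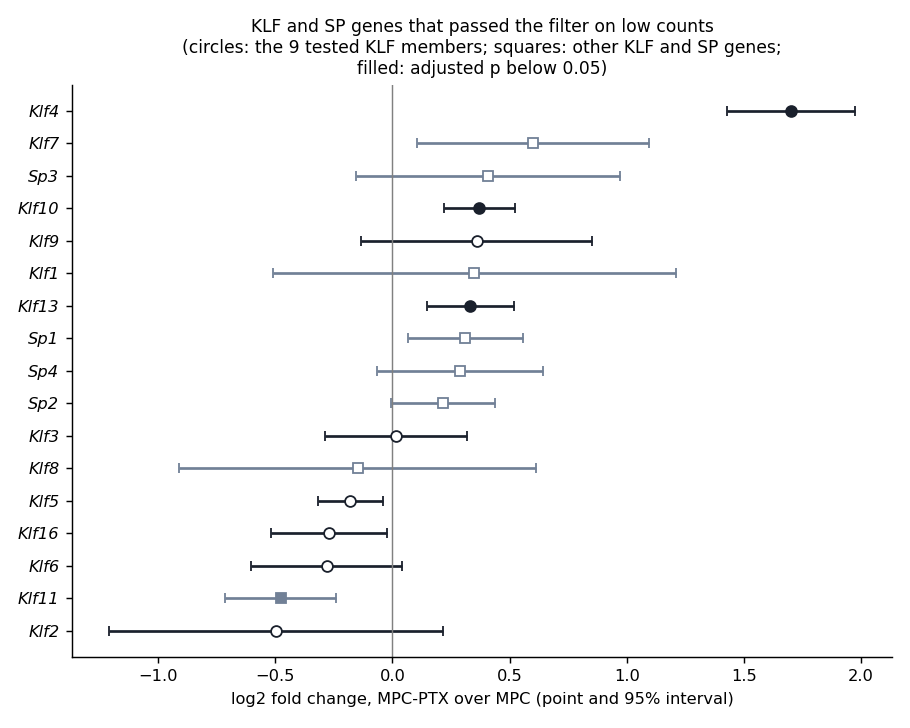
Log2 fold change of MPC-PTX over MPC (x axis) with its 95% interval for the 9 tested KLF members (circles) and the 8 other tested KLF and SP genes (squares), filled where the adjusted p was below 0.05. Klf4 stands at 1.70, Klf10 and Klf13 are the other filled circles, and Klf11, at -0.48, is the filled square.

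Of 17 coregulators and modifiers of KLF proteins, all tested, 1 was higher and 1 lower, shares of 5.88% each beside 14.1% and 15.6% of all tested genes, and the median log2 fold change was -0.03. Sap30, a subunit of the SIN3 complex, had a log2 fold change of 0.41 (adjusted p = 0.0121) and Hdac3, the deacetylase of the NCOR complex, one of -0.25 (adjusted p = 0.0262), both in edgeR's test. Neither call was made when MPC replicate 2 or any MPC-PTX library was left out. Without MPC replicate 3 there were 3 higher and 4 lower, where 25.4% and 27.1% of all genes were. With the GC and length correction 2 were higher and 3 lower, where 21.2% and 19.7% of all genes were. Of 17 genes of pathways known to act upstream of KLF genes, 16 were tested, 0 were higher and 2 were lower in edgeR's test (12.5%, beside 15.6% of all tested genes), with a median of -0.06. At an unadjusted p under 0.05, for which no share of all genes was taken, 2 were higher and 4 lower. DESeq2 called 0 higher and 3 lower, where it called 12.3% and 16.6% of all genes. Without MPC replicate 3, edgeR called 5 higher and 6 lower, where it called 25.4% and 27.1% of all genes. With the GC and length correction it called 4 higher and 5 lower, where it called 21.2% and 19.7% of all genes. Without MPC replicate 1 it called 0 higher and 4 lower, where it called 18.3% and 17.7% of all genes. Without any other single library 1 was lower, where 9.04% to 10.2% of all genes were. Smad3, which carries TGF-beta signals to the nucleus, had a log2 fold change of -0.27 (adjusted p = 0.0167). Mrtfa, a coactivator of SRF, had -0.41 (adjusted p = 0.00630).

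Of 28 genes described as KLF targets, 23 were tested, 5 were higher and 7 lower, shares of 21.7% and 30.4% beside 14.1% and 15.6% of all tested genes. The median log2 fold change was 0.01. The higher genes were S1pr1, Fgfbp1, Vegfa, Tgfb1 and Ccne1. S1pr1, a sphingosine 1-phosphate receptor described as a KLF2 target in lymphocytes, had 30, 17 and 26 counts in MPC and 120, 124 and 78 in MPC-PTX, a log2 fold change of 2.05 (SE 0.22, adjusted p = 0.000739 in edgeR's test). Fgfbp1, a carrier of fibroblast growth factors, rose from 86.0 ± 28.1 CPM (SD, n = 3) to 242 ± 1.56 CPM (SD, n = 3), a log2 fold change of 1.496 (adjusted p = 0.00295 in edgeR's test). Vegfa, the angiogenic growth factor, rose from 70.4 ± 18.7 CPM (SD, n = 3) to 141 ± 5.03 CPM (SD, n = 3), a log2 fold change of 1.01 (adjusted p = 0.00652 in edgeR's test). The lower genes included Cdkn1a, Ccnb1, Birc5, Egfr, Pdgfa and Odc1, with log2 fold changes of -0.44 to -0.23. Cdkn1a, a cell cycle inhibitor that KLF4 is known to induce, had a log2 fold change of -0.31 with an adjusted p of 0.04999, just inside the threshold. Ccnb1, the mitotic cyclin that KLF4 is known to repress, had -0.37 (adjusted p = 0.00430). Ccnd1, described as a target of KLF5, had 0.04 (adjusted p = 0.879). Leaving out a library gave 3 to 6 higher targets, where 6.75% to 25.4% of all genes were higher. The lower targets were 3 to 10, with the most without MPC replicate 3, where 27.1% of all genes were lower. Without MPC replicate 2, MPC-PTX replicate 1 or MPC-PTX replicate 2, 3 targets were lower, where 10.2%, 9.42% and 9.04% of all genes were. Without MPC-PTX replicate 3, 4 targets were lower, where 9.20% of all genes were. The higher targets were 3 without MPC-PTX replicate 1 or 2, where 6.75% and 6.94% of all genes were higher.

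Immediate early genes are induced within minutes by serum and growth factors, as several KLFs are. Of 24, 23 were tested, with a median log2 fold change of 0.10, and 1 was higher (Fosl2, log2 fold change 0.37, adjusted p = 0.00460) and 2 were lower. These were Btg2, with -0.55 (adjusted p = 0.00144), and Gadd45b, which fell from 150 ± 19.5 CPM (SD, n = 3) to 68.8 ± 3.17 CPM (SD, n = 3), a log2 fold change of -1.13 (adjusted p = 0.000346, all in edgeR's test). The shares of 4.35% higher and 8.70% lower were below the 14.1% and 15.6% of all tested genes. For 19 of the 23 tested genes the highest MPC library was replicate 1. Without that library 13 of the 23 were higher in MPC-PTX, where 18.3% of all genes were, and 2 were lower, where 17.7% were. With the GC and length correction 5 of the 23 were higher, close to the 21.2% of all genes in that fit. Egr1 was 8.25 times and Fos 5.01 times as high in MPC replicate 1 as in the mean of MPC replicates 2 and 3. Of the KLFs known as early response genes, Klf2 and Klf6 also had their highest MPC value in replicate 1, while Klf4 and Klf10 did not. For Klf6, replicate 3 came near it, with 244, 167 and 233 CPM in MPC replicates 1, 2 and 3. Klf16 was also highest in replicate 1 among the MPC libraries. The part of this difference between MPC libraries in the Klf2 and Klf6 values was not tested beyond the fits without replicate 1.

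Of 14 genes that respond to glucocorticoids, as Klf9 does, 12 were tested, 3 were higher and 3 lower, shares of 25.0% each beside 14.1% and 15.6% of all tested genes, and the median log2 fold change was 0.04. Lcn2, an iron-binding protein of inflamed epithelium, had 35.4, 56.0 and 51.5 CPM in MPC and 238, 224 and 228 CPM in MPC-PTX, a log2 fold change of 2.27 (SE 0.16, adjusted p = 0.000172 in edgeR's test). Fkbp5, a co-chaperone of the glucocorticoid receptor, had 0.87, and Per1, a clock gene, 0.43. Pdk4, which restrains pyruvate dehydrogenase, had 57, 63 and 55 counts in MPC and 2, 22 and 11 in MPC-PTX, a log2 fold change of -2.38 (SE 0.53, adjusted p = 0.0143). Ddit4 had -0.86 and Mt1 -0.38. Nr3c1, the glucocorticoid receptor itself, had 0.46 (adjusted p = 0.169).

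Of 12 genes that act with Klf4 in pluripotent cells, 4 were tested, 1 was higher and 1 lower, shares of 25.0% each beside 14.1% and 15.6% of all tested genes, and the median log2 fold change was 0.27. Sox2, also known in the stomach epithelium, had a log2 fold change of 0.45 (adjusted p = 0.00897), and Mycn fell from 23.9 ± 4.18 CPM (SD, n = 3) to 11.0 ± 1.69 CPM (SD, n = 3), a log2 fold change of -1.12 (SE 0.17, adjusted p = 0.00298 in edgeR's test). Myc had 0.43 (adjusted p = 0.213) and Tfcp2l1 0.11. Pou5f1 and Nanog were among the 8 genes that did not pass the filter.

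Around the other KLFs, the neighbours within 1 Mb were called as follows. Near Klf10, 4 of 10 tested genes were higher (40.0%, beside 14.1% of all tested genes), with a median log2 fold change of 0.32. Near Klf13, 1 of 7 was higher (14.3%, close to the share of all genes), with a median of 0.16. Near Klf2, 11 of 41 were higher (26.8%), with a median of 0.19, and that of the 663 tested genes of chromosome 8 was 0.26. Klf2 itself had -0.50 and was not called. For Klf3, Klf5, Klf6 and Klf9, 2 to 16 neighbours were tested, with medians of 0.12 to 0.48.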

How the data were processed

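RNA of 3 MPC and 3 MPC-PTX libraries was sequenced after poly-A selection. Reads were filtered with fastp 0.22.0 per the labels, and the counts deposited by the authors are raw reads on each gene in each library, neither normalized nor pooled. The 6 tables per sample held the same values as the series table. The genome build, annotation, counter and use of strand are not given in the sources used here, so overlapping genes and close copies are uncertain. The authors compared the lines with DESeq.

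From the counts, library sizes were scaled by TMM, genes were filtered by filterByExpr (minimum count 10), and 11795 genes were tested between the lines with edgeR 4.0.16 (glmQLFit, robust, and glmQLFTest, R 4.3.3, limma 3.58.1). Benjamini-Hochberg adjustment was made over all of them, and an adjusted p below 0.05 was a call. The standard error is the log2 fold change over the root of the F statistic. Log2 CPM used a prior count of 2. Lengths, GC content and positions came from GENCODE M21 (GRCm38), with values for 11776 tested genes, and promoters from RefSeq. TPM were computed from the counts and these lengths. Totals were 16574580 to 23148182 counts. A count of 0 was taken to allow 3 counts, which covers counting error only.

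The KLF genes and the gene lists were chosen with earlier results of these data known. Named genes were all KLF and SP genes with a count, called list members whose log2 fold change was beyond 1 in size (at most 5 a list), the 3 genes most like the most changed KLF, Trp53 and Cdh1. Other genes named in the text were chosen after their values were seen. Not every called list member is reported here.

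Alternatives were DESeq2 1.42.0, its size factors, the library size alone, no filter, at least 10 counts in every sample, a replicate block, correction for GC content and length by loess (span 0.3), both together, glmTreat against a log2 fold change of 1, the longest transcript, and each library left out in turn. Sample numbers were checked for pairing. Deviations of same-numbered libraries from their lines had correlations of 0.15, -0.02 and 0.17. MPC replicates 1 and 3 correlated best with the MPC-PTX library of the same number, and MPC replicate 2 did not. With 3 libraries in each line, these correlations cannot decide whether the numbers pair the samples.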

Additional observations from a re-analysis of the deposited data

How the results depend on the processing

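Of the 9 tested KLFs, 8 kept their sign under the 15 alternatives, and Klf3 did not. Its log2 fold change was -0.019 with DESeq2 and with DESeq2's size factors, -0.015 with at least 10 counts in every sample, -0.090 with the GC and length correction with or without the replicate block, and -0.088 to 0.13 as each library was left out. Cdh1 turned to 0.024 with the library size alone and to 0.038 with the GC and length correction with or without the block, and Klf8, at -0.38 to 0.10 as each library was left out, turned without MPC replicate 3. The cause was not tested. Of the KLFs, 1 was higher against a log2 fold change of 1 (glmTreat), where 1.17% of all genes were. With DESeq2, its size factors or at least 10 counts in every sample, 1 KLF was lower. There 16.6%, 16.9% and 15.6% of all genes were lower. With the GC and length correction, without or with the block, 2 KLFs were lower, where 19.7% and 19.8% of all genes were. The lower genes differed, and were Klf5 and Klf16 with the correction alone and Klf5 and Klf6 with the block added (adjusted p = 0.0370 for Klf6 and 0.0638 for Klf16). The block with the correction also gave 4 higher KLFs, with Klf9 as the fourth (log2 fold change 0.38, adjusted p = 0.0380). In that fit 21.5% of all genes were higher. Leaving out each library in turn gave 2 to 4 KLFs higher and 0 to 2 lower. In these fits 6.75% to 25.4% of all genes were higher and 9.04% to 27.1% lower. Among all genes, the replicate block with the GC and length correction gave 2527 higher, glmTreat 138 higher and 255 lower, at least 10 counts in every sample 246 higher and 338 lower by the rule of the study's methods, and leaving out a library 803 to 3020 higher and 1077 to 3227 lower. The replicate block alone gave 1787 higher and 1717 lower genes (15.2% and 14.6%) and again 3 higher and 0 lower KLFs. The block rests on the sample number alone. MPC replicates 1 and 3 correlated best with the MPC-PTX replicate of the same number (0.15 and 0.17). MPC replicate 2 correlated best with MPC-PTX replicate 1 (0.15). Scaling with other size factors moved the median of all genes by at most 0.04. Depth limited Klf2 and Klf15, with at most 64 and 1 counts in a library.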
